A study of Mus musculus with 8 samples.

Results

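The aryl hydrocarbon receptor genes described here are 6 of the 24108 named genes of the count table: Ahr, Arnt, Ahrr, Tiparp, Cyp1a1 and Nqo1. They were chosen by name, with earlier results of these data known, and read in all 8 libraries of the series. All 6 were among the 13989 genes that passed the filter on low counts, Cyp1a1 through 1 library each of 2 populations. CD4 T cells were sorted from mesenteric lymph nodes into 4 populations of 2 libraries each, and their polyA RNA was sequenced. The populations were tdTomato-positive GFP cells (marked GFP), tdTomato-negative GFP cells (unmarked GFP), tdTomato-positive Thy1.1 cells (marked Thy1.1) and tdTomato-negative Thy1.1 cells (unmarked Thy1.1). All came from 1 genotype, with a Foxp3 locus that carried the diphtheria toxin receptor with GFP on one allele and Thy1.1 on the other, a tamoxifen-activated Cre under CD4 control (CD4CreER/wt) and a Cre-dependent tdTomato (R26lsl-tdTomato/wt).

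All mice were bred and weaned on AVNM (not spelled out in the labels) and on an amino acid-defined diet. They received tamoxifen, and diphtheria toxin during about 3 weeks of labeling, then chow and a fecal microbiota, and cells were taken 12 days after colonization. Per the design text the tdTomato mark was aimed at CD4 T cells outside the thymus that lacked Foxp3, and the series title names peripherally induced regulatory T (Treg) cells. The strain name joins the toxin receptor to GFP, and what the toxin did to either reporter's cells was not tested. The labels give no ages and do not say whether libraries came from separate animals or whether the reporters were sorted from the same animals, so the p-values below reflect only how far these libraries spread, possibly for technical reasons.

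The aryl hydrocarbon receptor (AHR) is a transcription factor of the bHLH-PAS family that is switched on by small molecules, among them products of dietary plants and of microbial tryptophan metabolism. Unbound, it is held in the cytoplasm by HSP90 and its co-chaperones. After binding a ligand it enters the nucleus, pairs with ARNT and binds DNA at xenobiotic response elements, whose core reads GCGTG. Several of its targets limit the pathway in turn: CYP1A1 breaks ligands down, the AHR repressor AHRR competes for ARNT, and the ADP-ribosyltransferase TIPARP modifies AHR. NQO1, a quinone reductase, is a target of both AHR and the oxidative stress factor NRF2, which binds antioxidant response elements. In mice, AHR is known to be high in Treg cells of the gut.

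The bases before the start sites of the 4 target genes are shown because these genes share the receptor as a regulator. RefSeq promoter windows on GRCm38.p6 were matched by symbol for 5 of the 6 genes (not Ahr). Each line below gives the 250 bases before the start, 5′ to 3′ on the strand of the gene, at chr13:74292332-74292581 (minus strand) for Ahrr, chr3:65528197-65528446 (plus) for Tiparp, chr9:57697363-57697612 (plus) for Cyp1a1 and chr8:107403206-107403455 (minus) for Nqo1. Capitals mark matches, on either strand, to GCGTG, to its longer form TNGCGTG, or to the antioxidant motif TGACNNNGC.
Ahrr: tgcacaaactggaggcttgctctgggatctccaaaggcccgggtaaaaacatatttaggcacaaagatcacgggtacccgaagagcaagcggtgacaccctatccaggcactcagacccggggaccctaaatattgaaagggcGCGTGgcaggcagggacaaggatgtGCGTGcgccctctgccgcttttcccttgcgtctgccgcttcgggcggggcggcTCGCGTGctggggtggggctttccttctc
Tiparp: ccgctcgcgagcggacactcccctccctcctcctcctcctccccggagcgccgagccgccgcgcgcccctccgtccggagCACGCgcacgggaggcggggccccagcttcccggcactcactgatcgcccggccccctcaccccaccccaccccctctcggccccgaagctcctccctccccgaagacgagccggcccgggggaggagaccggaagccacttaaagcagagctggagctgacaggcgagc
Cyp1a1: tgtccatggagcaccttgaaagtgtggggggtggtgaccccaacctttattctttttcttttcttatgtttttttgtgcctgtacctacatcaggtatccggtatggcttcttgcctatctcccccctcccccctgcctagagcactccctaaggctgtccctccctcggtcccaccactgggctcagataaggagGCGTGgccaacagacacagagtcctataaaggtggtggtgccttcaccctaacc
Nqo1: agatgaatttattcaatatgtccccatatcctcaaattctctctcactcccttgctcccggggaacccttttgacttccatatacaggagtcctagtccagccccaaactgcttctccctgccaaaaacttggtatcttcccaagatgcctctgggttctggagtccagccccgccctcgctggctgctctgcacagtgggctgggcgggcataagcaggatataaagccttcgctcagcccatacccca
The Ahrr window held 3 matches to GCGTG, of which 1 was also a match to TNGCGTG, which contains GCGTG by construction. Tiparp held 1 match to GCGTG, on the reverse strand, and Cyp1a1 held 1. The Nqo1 window held 0 matches to any of the motifs. Of all 32851 RefSeq windows of this length, 28.2% held GCGTG, 4.1% held TNGCGTG and 10.2% held TGACNNNGC. A match is a description of letters and not a binding site, and a window without one says nothing about sites elsewhere.

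Library totals lay between 38085686 and 47908198 counts. Genes of Treg and CD4 T cells were high throughout, with Foxp3 at 126 to 201 CPM (counts per 1000000 after scaling) and Cd3e at 965 to 1374 CPM. Some libraries stood apart by markers of other cells. Of 7 myeloid and dendritic genes, unmarked GFP library 3 had counts for all, with a sum of 112 CPM, including Siglech at 36.8 CPM and H2-Aa at 34.0 CPM. Marked GFP library 3 followed with 32.5 CPM, of which Lyz2 gave 21.9 CPM, and the remaining libraries held 4.11 to 7.04 CPM. Siglech was at 0 counts in both libraries of marked GFP cells, in both of marked Thy1.1 cells and in unmarked GFP library 4. Of 3 erythroid genes in the table, marked GFP library 3 held a sum of 47.5 CPM, and the other 7 libraries held 1.73 to 5.37 CPM. The 5 B cell genes summed to 8.43 to 42.7 CPM and 4 CD8 and NK genes to 12.8 to 38.6 CPM. The gamma-delta genes looked for were not in the count table. The 7 stromal, endothelial and epithelial genes summed to 153 to 315 CPM, of which Pecam1 alone gave 98.1 to 304 CPM. Summed cell cycle genes differed by population, at 952 and 768 CPM in marked GFP cells, 493 and 382 CPM in unmarked GFP cells, 243 and 224 CPM in marked Thy1.1 cells and 250 and 256 CPM in unmarked Thy1.1 cells. All 10 rose in marked GFP over marked Thy1.1 cells (8.01% of all tested genes) and 6 in marked over unmarked GFP cells (6.24%). Of 6 Treg and CD4 genes, Ctla4 and Cd4 rose and Foxp3 fell by 0.48 ± 0.12 in marked GFP over marked Thy1.1 cells (edgeR adjusted p = 0.0314), and Ctla4 and Cd4 rose in marked over unmarked GFP cells. Of the markers of other cells, the hemoglobin gene Hba-a2 rose in the first comparison, and Epcam rose while Pecam1 and Cd8b1 fell in the second. EdgeR called 0 B cell and 0 myeloid genes in these comparisons, where DESeq2 called 1 B cell gene in each and 3 myeloid genes in the second. Of all tested genes DESeq2 called 3164 in the first and 3003 in the second.

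**Figure D1:**
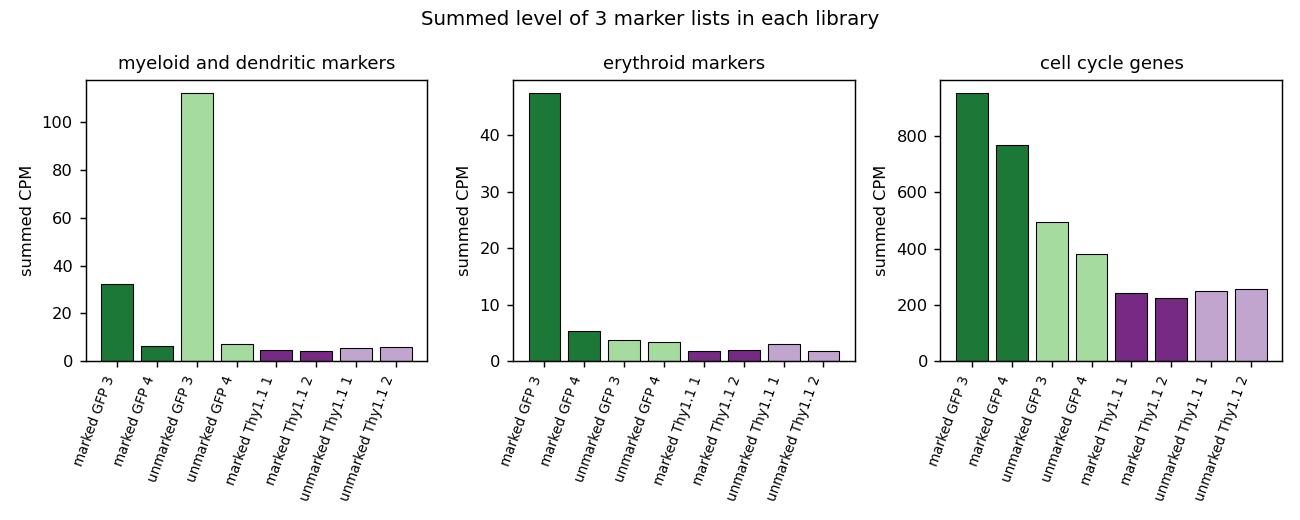
Summed CPM (y axis, linear from 0) of 7 myeloid and dendritic, 3 erythroid and 10 cell cycle genes in each library (x axis), with bars coloured by population. Unmarked GFP library 3 stands apart in the myeloid panel with 112 CPM, followed by marked GFP library 3 with 32.5 CPM. Marked GFP library 3 stands apart in the erythroid panel with 47.5 CPM, and both marked GFP libraries are the highest in cell cycle genes.

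The receptor itself, Ahr, was highest in marked GFP cells. It had 456 and 474 CPM in marked GFP cells, 210 and 153 CPM in unmarked GFP cells, 136 and 141 CPM in marked Thy1.1 cells, and 107 and 126 CPM in unmarked Thy1.1 cells. The marked GFP libraries lay far above the other 6, of which the unmarked GFP libraries were the highest. Between marked populations, Ahr rose by 1.75 ± 0.16 in GFP over Thy1.1 cells (SE of log2, 2 libraries each; edgeR adjusted p = 0.000993). Within GFP cells, it rose by 1.36 ± 0.15 in marked over unmarked cells (edgeR adjusted p = 0.0028). Both comparisons use the same marked GFP libraries. Further down the order, the difference of unmarked GFP over unmarked Thy1.1 cells was 0.64 ± 0.15 (edgeR adjusted p = 0.154), and that of marked over unmarked Thy1.1 cells was 0.25 ± 0.15 (edgeR adjusted p = 0.771). In bulk RNA, a larger share of cells with the transcript and more transcript per cell cannot be told apart. The exons of Ahr overlap the gene model Gm48236 in GENCODE M21, and the library kit does not mark strand.

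Whether the mark went with a larger difference in GFP than in Thy1.1 cells was tested as an interaction. For Ahr the difference of the log2 differences was 1.11 ± 0.22 (edgeR adjusted p = 0.0958). Unmarked GFP library 3, the library with the highest myeloid sum, had the higher Ahr level of its pair. Without it the interaction was 1.36 (edgeR adjusted p = 0.0345), and over the other 15 alternatives its adjusted p lay between 0.000185, by DESeq2, and 0.374. The part of the myeloid markers in the Ahr level of that library was not tested.

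**Figure D2:**
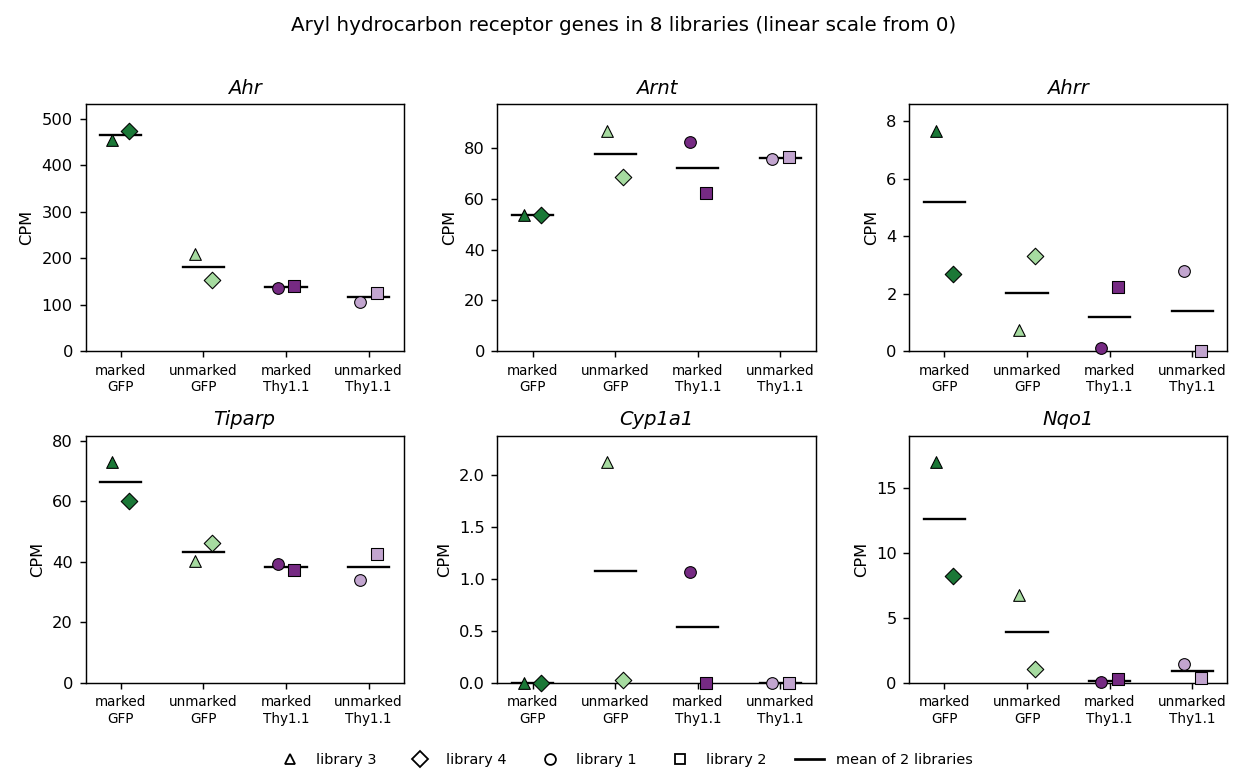
CPM (y axis, linear from 0, scaled per panel) of the 6 genes in each library, by population (x axis). Symbols give the library number, and bars give the mean of 2 libraries. Ahr, Tiparp and Nqo1 are highest in both marked GFP libraries, Arnt is lowest there, Ahrr differs several-fold between libraries of 1 population, and Cyp1a1 is near 0 outside 2 libraries.

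The partner gene Arnt, whose protein also pairs with hypoxia-inducible factors, did not follow the receptor. Arnt had 53.8 and 53.9 CPM in marked GFP cells, 86.9 and 68.9 CPM in unmarked GFP cells, 82.6 and 62.2 CPM in marked Thy1.1 cells, and 75.8 and 76.5 CPM in unmarked Thy1.1 cells. The marked GFP libraries lay below the other 6, but the gap to the nearest library was smaller than the spread of the marked Thy1.1 pair. Its differences were -0.43 ± 0.17 for marked GFP over marked Thy1.1 cells (edgeR adjusted p = 0.138) and -0.53 ± 0.17 for marked over unmarked GFP cells (edgeR adjusted p = 0.0811; 0.0235 by DESeq2). In the other 3 tests the adjusted p for Arnt was 0.465 or above. Per kilobase of exon, the mean level of Ahr was 75.5 CPM and that of Arnt 6.72 CPM in marked GFP cells, against 18.9 CPM for Ahr and 9.51 CPM for Arnt in unmarked Thy1.1 cells.

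Among the feedback genes, Tiparp was also highest in marked GFP cells, by a smaller amount than Ahr. Tiparp had 72.8 and 60.0 CPM in marked GFP cells, 40.1 and 46.4 CPM in unmarked GFP cells, 39.4 and 37.2 CPM in marked Thy1.1 cells, and 33.9 and 42.4 CPM in unmarked Thy1.1 cells. Both marked GFP libraries lay above the other 6, which overlapped between populations. Marked GFP library 3, the higher of its pair, also held erythroid and myeloid markers, whose part was not tested. Tiparp rose by 0.79 ± 0.18 in marked GFP over marked Thy1.1 cells (edgeR adjusted p = 0.0226). This call was lost without marked GFP library 3 (0.60, edgeR adjusted p = 0.118) and without marked Thy1.1 library 1 or 2 (0.78 and 0.70, edgeR adjusted p = 0.148 and 0.166). For marked over unmarked GFP cells the difference was 0.62 ± 0.18 and missed the threshold (edgeR adjusted p = 0.0568), whereas DESeq2, limma-voom and a stricter filter gave adjusted p of 0.0211, 0.0426 and 0.0487. In unmarked cells the difference of GFP over Thy1.1 was 0.18 ± 0.18 (edgeR adjusted p = 0.755), in Thy1.1 cells that of marked over unmarked was 0.01 ± 0.18 (edgeR adjusted p = 1), and the interaction was 0.61 ± 0.25 (edgeR adjusted p = 0.361). Its exons overlap 4931440P22Rik, which had 1.59 to 5.30 CPM in the 8 libraries.

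The repressor gene Ahrr was low and uneven. Its counts were 340 and 100 in marked GFP cells (7.67 and 2.69 CPM), 34 and 151 in unmarked GFP cells (0.735 and 3.32 CPM), 6 and 98 in marked Thy1.1 cells (0.123 and 2.24 CPM), and 132 and 0 in unmarked Thy1.1 cells (2.79 and 0 CPM). A count of 0 allows up to 0.0700 CPM in that library. Libraries of 1 population thus differed by 2.86-fold or more, and their counting intervals did not overlap within any pair, for example 6.88 to 8.53 CPM and 2.19 to 3.27 CPM in marked GFP cells (exact Poisson, 95%, counting error only). The difference of marked GFP over marked Thy1.1 cells was 2.13 ± 1.95 (edgeR adjusted p = 0.522), and 0 of the 5 tests called Ahrr, with adjusted p of 0.522 or above.

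Cyp1a1, the classical readout of an active receptor in liver and epithelium, was at or near 0. It had 0 and 0 counts in marked GFP cells, 98 and 1 in unmarked GFP cells, 52 and 0 in marked Thy1.1 cells, and 0 and 0 in unmarked Thy1.1 cells. The highest Ahr levels thus stood beside 0 Cyp1a1 counts, which allows up to 0.0677 and 0.0806 CPM in the marked GFP libraries. The 98 counts, 2.12 CPM, were in unmarked GFP library 3, which had the highest myeloid sum. The 52 counts, 1.06 CPM, were in marked Thy1.1 library 1, whose myeloid sum was 4.66 CPM. The part of other cells in these counts was not tested. Fitted fold changes of Cyp1a1 rest on the prior count and are not given as sizes, and its adjusted p was 0.22 or above in the 5 edgeR tests.

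The quinone reductase gene Nqo1 had the largest fitted difference of the 5 genes for which one is given. Its counts were 751 and 306 in marked GFP cells (16.9 and 8.22 CPM), 312 and 48 in unmarked GFP cells (6.75 and 1.06 CPM), 2 and 13 in marked Thy1.1 cells (0.0409 and 0.297 CPM), and 69 and 16 in unmarked Thy1.1 cells (1.46 and 0.374 CPM). Both marked GFP libraries were above the other 6, and both marked Thy1.1 libraries were below the other 6. Marked GFP library 3, the higher of its pair, also held erythroid and myeloid markers, whose part was not tested. Nqo1 rose by 6.21 ± 1.35 in marked GFP over marked Thy1.1 cells (edgeR adjusted p = 0.0213). With so few Thy1.1 counts the size is loose. Without marked GFP library 3 it was 5.54 (edgeR adjusted p = 0.0615), without marked Thy1.1 library 1 it was 5.33 (edgeR adjusted p = 0.133) and without marked Thy1.1 library 2 it was 8.12 (edgeR adjusted p = 0.0712), so that the call was lost each time, and limma-voom gave an adjusted p of 0.0605. For marked over unmarked GFP cells the difference was 1.69 ± 1.08 (edgeR adjusted p = 0.345), with unmarked GFP library 3, which held myeloid markers, at 6.75 CPM and library 4 at 1.06 CPM. For marked over unmarked Thy1.1 cells it was -2.44 ± 1.20 (edgeR adjusted p = 0.709).

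**Figure D3:**
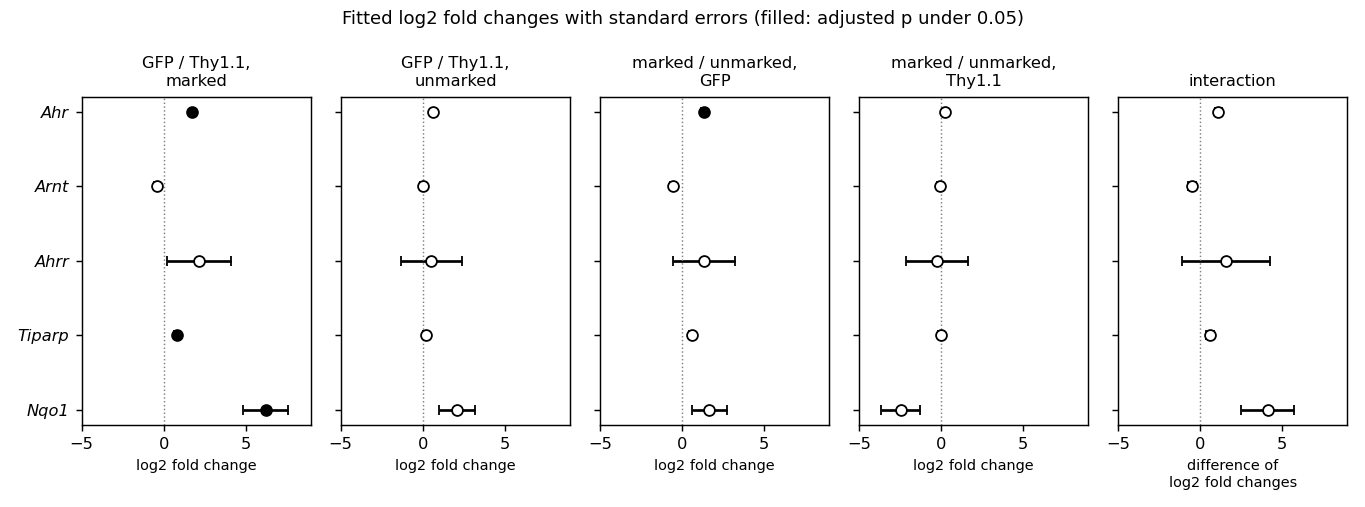
Fitted log2 fold changes (x axis) of 5 genes (y axis) in the 5 tests, with standard errors as bars and filled points for an adjusted p under 0.05. Cyp1a1 is not drawn because its fitted values depend on the prior count. Ahr, Tiparp and Nqo1 are filled for marked GFP over marked Thy1.1 cells and Ahr for marked over unmarked GFP cells, and Ahrr and Nqo1 carry the widest bars.

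Counted together, 3 of the 6 genes rose and 0 fell in marked GFP over marked Thy1.1 cells, where 14.8% of all tested genes were called (8.01% higher and 6.82% lower). With 1 library left out, the differences ran from 1.67 to 1.75 for Ahr, 0.60 to 0.91 for Tiparp and 5.33 to 8.12 for Nqo1. The calls of Tiparp and Nqo1 were lost without marked GFP library 3 and without either marked Thy1.1 library. Calls over all tested genes also fell without some single libraries. Libraries of these populations did not overlap for 5 of the 6 genes, against 59% of all tested genes. The 6 genes were chosen with earlier results of these data known, so their counts are not independent evidence. In marked over unmarked GFP cells 1 gene, Ahr, rose, against 12.6% of all tested genes (6.24% higher and 6.4% lower). There 2 genes passed under limma-voom and under the stricter filter. DESeq2 called 3 of the 6, beside 3003 of all 13989 tested genes. By edgeR, 0 of the 6 were called in GFP over Thy1.1 unmarked cells (0.164% of all tested genes), in marked over unmarked Thy1.1 cells (0%) or in the interaction (0.443%). In marked over unmarked Thy1.1 cells 1063 of all tested genes had an unadjusted p under 0.05, and DESeq2 called 150. At an unadjusted p under 0.05 these 3 tests held 1, 0 and 4 of the 6, beside 11.9%, 7.6% and 12.8% of all tested genes. DESeq2 called 1, 0 and 1, beside 573, 150 and 568 of all tested genes, each time Ahr where it called 1 of the 6. The 4 were Ahr, Tiparp, Nqo1 and Cyp1a1, and the Cyp1a1 fit rests on the prior count. Libraries did not overlap for Ahr, Arnt, Tiparp and Nqo1 in marked over unmarked GFP cells (53.8% of all tested genes), for Ahr in GFP over Thy1.1 unmarked cells (42.6%), and for Ahr and Nqo1 in marked over unmarked Thy1.1 cells (45%). Cyp1a1 is not counted in the first 2 of these, since its 1 count in unmarked GFP library 4 lies under the limit that a count of 0 allows. The shares of all tested genes were counted without this limit.

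Genes whose levels ran most like Ahr over the 8 libraries were named by Pearson correlation of log2(CPM + 0.5), among 9668 genes with a mean of at least 5 CPM. The 5 highest were Ky, with r = 0.998, Crmp1 with 0.997, Ranbp1 with 0.996, Rps27l with 0.994 and Cox7b with 0.993. Crmp1, which encodes a collapsin response mediator protein, had 177 and 179 CPM in marked GFP cells, 58.5 and 37.1 CPM in unmarked GFP cells, 27.4 and 35.0 CPM in marked Thy1.1 cells and 24.5 and 28.2 CPM in unmarked Thy1.1 cells. On the same measure, over 13988 genes, Tiparp had r = 0.91 (rank 929), Nqo1 0.86 (rank 1486), Ahrr 0.524 (rank 3927), Cyp1a1 -0.09 (rank 7300) and Arnt -0.726 (rank 11897). These values describe 8 libraries in 4 pairs that share their populations, and much of each rests on the marked GFP pair.

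The chaperones that hold the receptor held 0 calls by edgeR. All 6 listed genes were tested, and this was so in each of the 5 comparisons, where 0% to 14.8% of all tested genes were called. In marked GFP over marked Thy1.1 cells their median log2 difference was 0.22, beside -0.01 over all tested genes, with the heat shock gene Hspa8 at 0.34 ± 0.11 (edgeR adjusted p = 0.066). There 4 of the 6 had an unadjusted p under 0.05, beside 29.9% of all tested genes. DESeq2 called 1, beside 3164 of all 13989 tested genes. Hsp90ab1, which encodes the HSP90 beta chaperone, had 806 and 887 CPM in marked GFP cells against 731 and 725 CPM in marked Thy1.1 cells.

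Relatives of the receptor in the bHLH-PAS family numbered 12 tested genes of 13 in the table. In marked GFP over marked Thy1.1 cells 3 rose and 0 fell (8.01% and 6.82% of all tested genes), with a median of 0.59. These calls were lost without either marked Thy1.1 library, and lower calls appeared without marked GFP library 3. Calls over all tested genes also fell without some single libraries. Hif1a, which encodes the hypoxia-inducible factor subunit that pairs with ARNT, rose by 0.62 ± 0.10 (edgeR adjusted p = 0.008), with 657 and 774 CPM in marked GFP cells against 451 and 481 CPM in marked Thy1.1 cells. The circadian gene Clock rose by 0.70 ± 0.12 and its relative Npas2 by 2.22 ± 0.56. In marked over unmarked GFP cells 4 rose and 0 fell (6.24% and 6.4% of all tested genes). The 4 were the same 3 and Epas1, which encodes HIF-2 alpha, with 2.78 ± 0.55 (edgeR adjusted p = 0.0193). Epas1 had 14.9 and 7.39 CPM in marked GFP cells against 1.99 and 1.25 CPM in unmarked GFP cells, but 17.4 and 9.19 CPM in marked Thy1.1 cells. Within GFP cells all calls of the list were lost without unmarked GFP library 4. Fewer were called without marked GFP library 3, where a lower call appeared, or without any 1 Thy1.1 library. Calls over all tested genes within GFP cells also fell without some single libraries.

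Other genes of the AHR battery were mostly silent. Of 11 in the table only 4 passed the filter, and the cytochrome gene Cyp1b1, Aldh3a1, Ugt1a6a, Gsta1 and Gsta2 had 0 counts in every library. Cyp1a2 had 0 to 12 counts. Cyp2s1, a cytochrome P450 gene, was the 1 called gene and rose by 1.77 ± 0.38 in marked GFP over marked Thy1.1 cells (edgeR adjusted p = 0.0207), with 25.3 and 32.7 CPM in marked GFP cells against 11.6 and 5.37 CPM in marked Thy1.1 cells. Unmarked GFP cells held 14.0 and 12.5 CPM of Cyp2s1, and the difference of marked over unmarked GFP cells was 1.13 ± 0.38 (edgeR adjusted p = 0.0891). Unmarked Thy1.1 cells held 4.11 and 5.04 CPM. In unmarked cells the difference of GFP over Thy1.1 was 1.53 ± 0.38 (edgeR adjusted p = 0.178). DESeq2 called 1 of the 4 within GFP cells and 1 in unmarked cells, beside 3003 and 573 of all tested genes. The median of the 4 was 0.18 in the first comparison, where 14.8% of all tested genes were called.

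The NRF2 response list shares a regulator with Nqo1. Of its 24 genes, all tested, 4 rose and 0 fell in marked GFP over marked Thy1.1 cells (8.01% and 6.82% of all tested genes), with a median of 0.31. In marked over unmarked GFP cells 6 rose and 0 fell (6.24% and 6.4% of all tested genes), with a median of 0.22. The peroxiredoxin gene Prdx1 rose by 0.93 ± 0.11 between marked populations (edgeR adjusted p = 0.00292), with 537 and 504 CPM in marked GFP cells against 265 and 282 CPM in marked Thy1.1 cells. The pentose phosphate gene Taldo1 rose by 0.73 ± 0.11, the small Maf gene Mafg by 1.27 ± 0.23 and the glutathione reductase gene Gsr by 0.64 ± 0.17. In marked over unmarked GFP cells the ferritin gene Fth1 rose by 0.44 ± 0.09 and the thioredoxin gene Txn1 by 0.74 ± 0.19, with Prdx1, Taldo1, Mafg and Gsr also called. Nfe2l2, which encodes NRF2, lay at 71.2 and 72.4 CPM in marked GFP cells, 85.4 and 66.8 CPM in unmarked GFP cells, and 77.7 to 87.8 CPM in the 4 Thy1.1 libraries. Between marked populations fewer were called without either marked Thy1.1 library. Within GFP cells fewer were called without either marked GFP library, unmarked GFP library 4 or any 1 Thy1.1 library. Calls over all tested genes also fell without some single libraries. Summed cell cycle genes were higher in the same libraries, and their part in these differences was not tested.

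Genes of tryptophan uptake and of the kynurenine route, which yields AHR ligands, went in both directions within GFP cells. Of 16 in the table, 12 were tested, of which 1 rose and 0 fell in marked GFP over marked Thy1.1 cells (8.01% and 6.82% of all tested genes). In marked over unmarked GFP cells 2 rose and 1 fell (6.24% and 6.4% of all tested genes). DESeq2 called 4 and 5 of the 12, beside 3164 and 3003 of all 13989 tested genes. Afmid, the formamidase that follows the first step of the route, rose by 0.65 ± 0.18 in marked GFP over marked Thy1.1 cells (edgeR adjusted p = 0.0485) and by 1.04 ± 0.18 in marked over unmarked GFP cells (edgeR adjusted p = 0.0122). The genes of the amino acid transporter CD98 went apart in marked over unmarked GFP cells. Slc7a5, its light chain, fell by 0.57 ± 0.13 (edgeR adjusted p = 0.0284), with 52.4 and 47.2 CPM in marked GFP cells against 71.9 and 75.8 CPM in unmarked GFP cells, and Slc3a2, its heavy chain, rose by 0.44 ± 0.12 (edgeR adjusted p = 0.0495). Marked Thy1.1 cells held 52.8 and 55.2 CPM of Slc7a5 and unmarked Thy1.1 cells 75.7 and 67.7 CPM. Ido1, which starts the route in many cells, had 0 counts in all 8 libraries. The list median was 0.02 in the first comparison and -0.30 in the second.

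Lymphocyte genes tied to the receptor in mouse T cells and innate lymphoid cells had the highest median of the 6 lists. Of 15 tested genes of 16, 11 rose and 1 fell in marked GFP over marked Thy1.1 cells (8.01% and 6.82% of all tested genes), with a median log2 difference of 2.15. In marked over unmarked GFP cells 7 rose and 0 fell (6.24% and 6.4% of all tested genes), with a median of 1.17. The cell cycle genes, outside these 6 lists, had higher medians in the same comparisons, 2.54 and 1.23. The list was made with earlier results of these data known, so the count is not independent evidence. In unmarked GFP over unmarked Thy1.1 cells the median was 1.54, and edgeR called 0 of the 15. There 12 had an unadjusted p under 0.05, beside 11.9% of all tested genes. DESeq2 called 12, beside 573 of all 13989 tested genes. The transcription factor gene Prdm1 had 229 and 277 CPM in marked GFP cells, 94.1 and 71.2 CPM in unmarked GFP cells, 56.5 and 57.3 CPM in marked Thy1.1 cells, and 34.1 and 40.9 CPM in unmarked Thy1.1 cells. Both marked GFP libraries lay above the other 6, and Prdm1 rose by 2.15 ± 0.17 between marked populations (edgeR adjusted p = 0.000842). The gene that fell was Itgb8, an integrin subunit that activates TGF-beta, with -2.29 ± 0.52 (edgeR adjusted p = 0.0235), at 9.95 and 6.29 CPM in marked GFP cells against 41.4 and 38.4 CPM in marked Thy1.1 cells. It was not called without any 1 of these 4 libraries. Entpd1, the ectoenzyme CD39, was at 0.13 ± 0.15 in that comparison (edgeR adjusted p = 0.629), and it rose by 0.90 ± 0.15 in marked over unmarked GFP cells (edgeR adjusted p = 0.0107). Il22, a cytokine gene that depends on AHR in innate lymphoid cells, stayed at or below 0.725 CPM. Fewer genes of the list were called between marked populations without marked Thy1.1 library 1, and within GFP cells without unmarked GFP library 4. Calls over all tested genes also fell without some single libraries.

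Gpr15 encodes a receptor for homing to the colon and is a known AHR target in mouse T cells. It was the 1 gene of these 6 pathway lists that edgeR called in the interaction (0.443% of all tested genes). DESeq2 called 3 of the lymphocyte list, 2 of the tryptophan list and 1 of the NRF2 list there. It called 568 of all 13989 tested genes in that test. Gpr15 had 199 and 148 CPM in marked GFP cells, 21.6 and 18.6 CPM in unmarked GFP cells, 55.4 and 52.9 CPM in marked Thy1.1 cells, and 18.0 and 22.7 CPM in unmarked Thy1.1 cells. Unmarked cells of both reporters overlapped, and marked cells of both reporters lay above them.

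**Figure D4:**
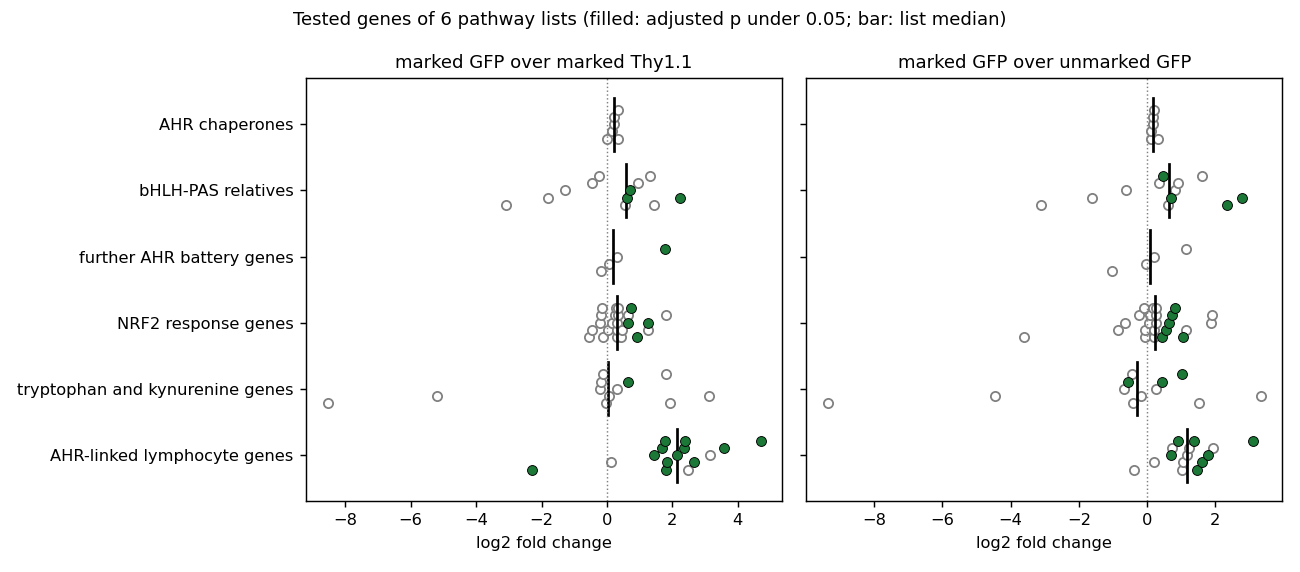
Log2 fold changes (x axis) of the tested genes of 6 lists (y axis), for marked GFP over marked Thy1.1 cells (left) and marked over unmarked GFP cells (right). Each point is a gene, filled green where the adjusted p was under 0.05, and bars give list medians. Of the 6 lists, the AHR-linked lymphocyte genes have the highest medians, 2.15 and 1.17, and the chaperones stay near 0. The cell cycle genes, not drawn, had medians of 2.54 and 1.23.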

How the data were processed

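PolyA RNA of sorted CD4 T cells was amplified by SMART-Seq v4 in 12 cycles and made into KAPA Hyper Prep libraries with 8 PCR cycles, read as 50-nt paired ends, per the labels' protocols. A single table of 24116 rows holds whole-number read counts by gene symbol, not normalized, as the authors deposited them. Neither aligner nor counter, annotation or build is given in the labels or headers, and DESeq is named, without a version, per the submitters' processing notes. The 8 rows without a name (0.0215% to 0.0264% of counts) were left out. Thy1.1 columns were matched by sample title. GFP columns are numbered 3 and 4, where titles say 1 and 2, and were matched to their population only.

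Genes passing edgeR's expression filter (minimum count 10) were scaled by TMM (factors 0.978 to 1.02) and fitted in 1 quasi-likelihood model of all 8 libraries with a mean per population (edgeR 4.0.16, limma 3.58.1, DESeq2 1.42.0, R 4.3.3). The 5 tests were GFP over Thy1.1 in marked and in unmarked cells, marked over unmarked in GFP and in Thy1.1 cells, and the interaction. P-values of all 13989 genes were adjusted together (Benjamini-Hochberg) and called under 0.05. The F statistic gave the standard errors. CPM uses TMM-scaled totals, in which the 3 counts used as limit for a count of 0 come to 0.0614 to 0.0806 CPM. Levels per kilobase use the union of GENCODE M21 exons, an annotation that need not be the authors'. The 2 libraries of each population had a chi-square of 31.6 to 68 per degree of freedom, far above counting noise.

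The genes and lists were chosen with earlier results of these data known. Named were all 6 genes, up to 4 genes per list and comparison with the smallest adjusted p, and the 5 genes most like Ahr. Levels of other list genes were chosen after their values were seen: Hsp90ab1, Nfe2l2, Cyp1a2, Itgb8, Il22, Ido1, the further called NRF2 genes, and Entpd1 outside its rule's comparison. On simulated data for marked GFP over marked Thy1.1 cells, with 50 genes at each fold over 13719 tested genes, 82% of genes lowered to 0.25 of their level, 56% lowered to 0.5, 50% raised 2-fold and 80% raised 4-fold were recovered, with 8 false calls. The changed genes were drawn only from genes above a minimum mean level, so the recovery does not cover genes as low as Cyp1a1. Alternatives were other scalings, filters and tools, fits of the compared libraries only, replicate blocks and leaving out each library. Leaving out libraries for list counts was added after seeing the data. Some genes of the lists are counted but not reported by name here.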

Additional observations from a re-analysis of the deposited data

Results flagged for a closer look

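For Nqo1 the libraries of marked and unmarked cells were ordered in opposite directions in the 2 reporters. Both marked GFP libraries were above both unmarked GFP libraries, and both marked Thy1.1 libraries were below both unmarked Thy1.1 libraries. Neither difference was called (edgeR adjusted p = 0.345 in GFP and 0.709 in Thy1.1 cells). Libraries did not overlap, in either direction, for 53.8% of all tested genes within GFP cells and 45% within Thy1.1 cells. The share of genes with opposite orders was not counted. Counting intervals of the nearest libraries overlapped, at 7.32 to 9.19 CPM in marked GFP and 6.02 to 7.54 CPM in unmarked GFP cells, and at 0.158 to 0.508 CPM in marked Thy1.1 and 0.214 to 0.607 CPM in unmarked Thy1.1 cells. The difference of the log2 differences was 4.13 ± 1.61, which missed the threshold (edgeR adjusted p = 0.347), and it lay between 2.78 and 6.03 over the alternatives. Gpr15 differed by 1.70 between reporters in the same test (edgeR adjusted p = 0.0478), and the replication gene Mcm2 by 0.96 (edgeR adjusted p = 0.0478).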

How the results depend on the processing

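Of 483 values of the 6 genes under the alternatives, 455 kept their direction and side of the threshold, 2, both of Cyp1a1 without marked Thy1.1 library 1, were 0 and uncalled, 7 lost the call, 8 gained one and 11 changed sign, all of these in uncalled values. Ahr kept its call between marked populations (1.67 to 1.75) and within GFP cells (1.11 to 1.61) in every alternative run. Counts over all tested genes moved with the tool and with single libraries. DESeq2 called 3164, 573, 3003, 150 and 568 genes in the 5 tests in the order given above, against 2074, 23, 1768, 0 and 62, and of the 6 genes 1 in unmarked cells, 3 within GFP cells and 1 in the interaction. Limma-voom called 3 genes in unmarked cells and 36 in the interaction, and 2 of the 6 within GFP cells, as did the stricter filter. With no filter 98 genes were called in unmarked cells and 109 in the interaction, and with the stricter filter 105 in unmarked cells. Fits of the 4 compared libraries called 1 gene in unmarked cells, 300 within GFP cells and 2 within Thy1.1 cells. Leaving out 1 library gave 481 to 2118, 0 to 75, 458 to 1801, 0 to 0 and 0 to 119 genes in the 5 tests, and 1 to 3 of the 6 genes between marked populations, 0 to 1 in unmarked cells and 0 to 1 in the interaction. List counts ran from 0 to 4 and 0 to 3 (bHLH-PAS), 2 to 5 and 1 to 5 (NRF2), and 7 to 13 and 4 to 8 (lymphocyte) between marked populations and within GFP cells. Signs changed, when 1 library was left out, in unmarked cells for Arnt (-0.14 to 0.19) and Ahrr (-0.92 to 9.50), within Thy1.1 cells for Arnt (-0.27 to 0.13), Ahrr (-3.47 to 8.73) and Tiparp (-0.13 to 0.20), and in the interaction for Ahrr (-7.42 to 4.77). Ahrr within Thy1.1 cells also changed sign under limma-voom (1.40). The cause of these changes was not tested.

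Library numbers shared by populations did not establish a pairing: deviations of the lower-numbered libraries correlated at 0.0625 to 0.119. A replicate block by lower and higher number gave 2214, 39, 1856, 0 and 63 genes, and one nested in the reporter gave 2039, 0 and 78 in the last 3 tests, with Ahrr within Thy1.1 cells at 0.70, and neither changed the count of the 6 genes called. Cyp1a1 had 0 to 98 counts per library, and Nqo1 in marked Thy1.1 cells rested on 2 and 13 counts. The part of depth in these low counts was not tested.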

Other observations

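The 2 libraries of a population disagreed more for Ahrr than for most genes of its level. Among 1688 tested genes with a mean of 1 to 5 CPM, the median ratio between libraries, with values raised to the limit that a count of 0 allows, was 1.89 in marked GFP, 1.66 in unmarked GFP, 1.44 in marked Thy1.1 and 1.59 in unmarked Thy1.1 cells. The ratio of Ahrr was 2.86, 4.52, 18.3 and at least 39.9 in the same order of populations. A ratio as large was found for 1.36% of those genes in marked Thy1.1 cells and for 1.07% in unmarked Thy1.1 cells, against 32.4% in marked GFP and 14.8% in unmarked GFP cells. The higher library was number 3 in marked GFP, 4 in unmarked GFP, 2 in marked Thy1.1 and 1 in unmarked Thy1.1 cells.

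Slc7a5 and Epas1 were chosen after their values were seen. Within each reporter Slc7a5 was lower and Epas1 higher in marked than in unmarked libraries, without overlap. Libraries did not overlap, in either direction, for 53.8% of all tested genes within GFP cells and 45% within Thy1.1 cells. The share without overlap in both was not counted. In Thy1.1 cells neither difference passed the threshold, at -0.41 for Slc7a5 (edgeR adjusted p = 0.569) and 1.73 for Epas1 (edgeR adjusted p = 0.56).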
